A study of Homo sapiens with 4 samples.

Results

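The genes of the collagen chains were followed in a comparison of cells in which CFL1, the gene of the actin-severing protein cofilin-1, had been knocked out with control cells. Members were all rows of the authors' deposited table whose symbol is COL, a number, A and a number, with nothing more. This gave 44 of 59885 genes, from 28 collagen types. The rows were taken by name and not by any measured value, with earlier results of these data known. All libraries carry the label PANC-1, the name of an established line from a human ductal adenocarcinoma of the pancreas, with 2 control libraries and 2 CFL1 knockout libraries of total RNA. The knockout method, the number of clones, the nature of the control and the culture time are not given in the sources used here. No label says that libraries came from separate cultures, and the spread between the knockouts may be technical. In fits of all 4 libraries the p-values also rest on the wide gap between the controls, given below, whose source was not tested.

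Collagens are proteins of the extracellular matrix built from 3 alpha chains, each rich in glycine repeats, wound into a triple helix. Some molecules hold identical chains and others need chains from different genes, so a partner that is missing limits what can be assembled. Fibrillar collagens form the banded fibres of connective tissue, type IV collagens form the sheet of basement membranes, and the remaining classes decorate fibrils, anchor epithelia or span the cell membrane. In pancreatic ductal adenocarcinoma most fibrillar collagen is known to be laid down by stromal fibroblasts, while tumour cells make basement membrane chains and some of the others.

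The deposited table holds 1 row per gene and no column per library, and whole reads per library were recovered from its base means (the base mean is the mean over the 4 libraries of reads divided by each library's size factor). Recovered reads of genes below a base mean of 10000 summed to between 12310488 and 14594941 per library. Values below are normalized counts, that is, reads divided by the size factor, and libraries are named A and B only to tell them apart. CFL1 had 6276 and 13761 normalized counts in controls A and B and 2285 and 2487 in knockouts A and B, in the direction of the labels. Control B lay away from the remaining libraries, and whether it holds cells of the same line was not tested beyond its label, which bears on every value set against it and on every fold change of the authors. Among 11450 genes whose base mean was 100 or more, the controls differed by more than 2 on the log2(normalized count + 1) scale at 1701 (14.9%), and the knockouts at 10 (0.0873%). Each result is therefore given against both controls. Epithelial markers summed to 2796 in control B and to between 3572 and 4011 in the other libraries, with KRT8 and KRT18 left out for their high base means. Those sums hide opposite spreads. KRT19 had 2481 normalized counts in control B and 1.82, 0 and 0 in control A and the knockouts. CDH1 and EPCAM were likewise highest in control B, at 164 and 42.5. In control A and the knockouts CDH1 had 12.7, 3.54 and 2.16, and EPCAM had 6.36, 7.08 and 16.2. KRT7 went the other way, with 108 in control B and 3551, 4000 and 3683 in control A and the knockouts. The log2 fold changes of KRT8 and KRT18 in the authors' deposited table were -1.41 and -0.98 (DESeq2 adjusted p 0.117 and 0.296). Of 9 fibroblast and stellate markers, 5 had base means under 10, LUM being at 0 and DCN, FAP, PDGFRA and POSTN near it, and FBLN1 and PDGFRB made up most of sums of 4137, 1224, 4580 and 4644 in control A, control B, knockout A and knockout B. The endothelial markers summed to 165 in control B, almost all of it KDR, and to between 15.9 and 38.2 elsewhere. The leukocyte markers summed to 1255 in control B, almost all of it CD68, and to between 19.1 and 20.5 elsewhere, with PTPRC at 1 read in all. The part of these marker differences in the collagen results was not tested, and in bulk RNA fewer cells of a type and less RNA per cell cannot be told apart.

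No collagen chain passed the authors' test. The authors' deposited table gives 30 chains an adjusted p, and 0 of them passed with a DESeq2 adjusted p under 0.05, the lowest being 0.106 for COL5A2, against 0.559% of all 16629 genes tested (0.138% higher and 0.421% lower in the knockouts). Under the looser mark of the authors' deposited table, which is an unadjusted p under 0.05, 2 chains count as upregulated (1.97% of all genes), COL4A1 and COL9A3, and 6 as downregulated (5.65% of all genes), COL5A2, COL6A2, COL6A3, COL13A1, COL16A1 and COL17A1. That is 8 of 41 chains with a base mean above 0, where the same mark is carried by 7.62% of all genes with a base mean above 0. All 8 are among the 30 chains with an adjusted p, and 12.6% of all genes with an adjusted p carry the mark. By class, the marked chains were 1 of 11 fibrillar, 1 of 9 network-forming, 2 of 6 beaded-filament, 2 of 10 fibril-associated, 2 of 4 transmembrane and 0 of 2 multiplexin chains. All 6 of the downward marks go with a control B value far above control A. The authors' deposited table gives a median log2 fold change of -0.19 over the 30 chains and -0.03 over all genes tested, and the median standard error was 0.978 for the chains and 0.515 for all genes.

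The chains fell into a measured part and a nearly silent part. The base mean was at least 1000 for 9 chains, at least 100 for 17, between 10 and 100 for 14, above 0 and under 10 for 10, and 0 for COL9A1, COL19A1 and COL23A1. A count of 0 reads in a library still allows an expected count of up to 3 reads, which is 2.66 to 3.35 normalized counts. Just inside the base mean of 100 stood COL3A1, COL8A1 and COL4A3 with 108, 155 and 163. Just outside it were COL27A1, COL4A6 and COL13A1 with 94.9, 88.0 and 55.5. Chains under a base mean of 10 had at most 17 reads in any library, and among them are COL1A2, COL2A1, COL14A1 and COL24A1.

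**Figure D1:**
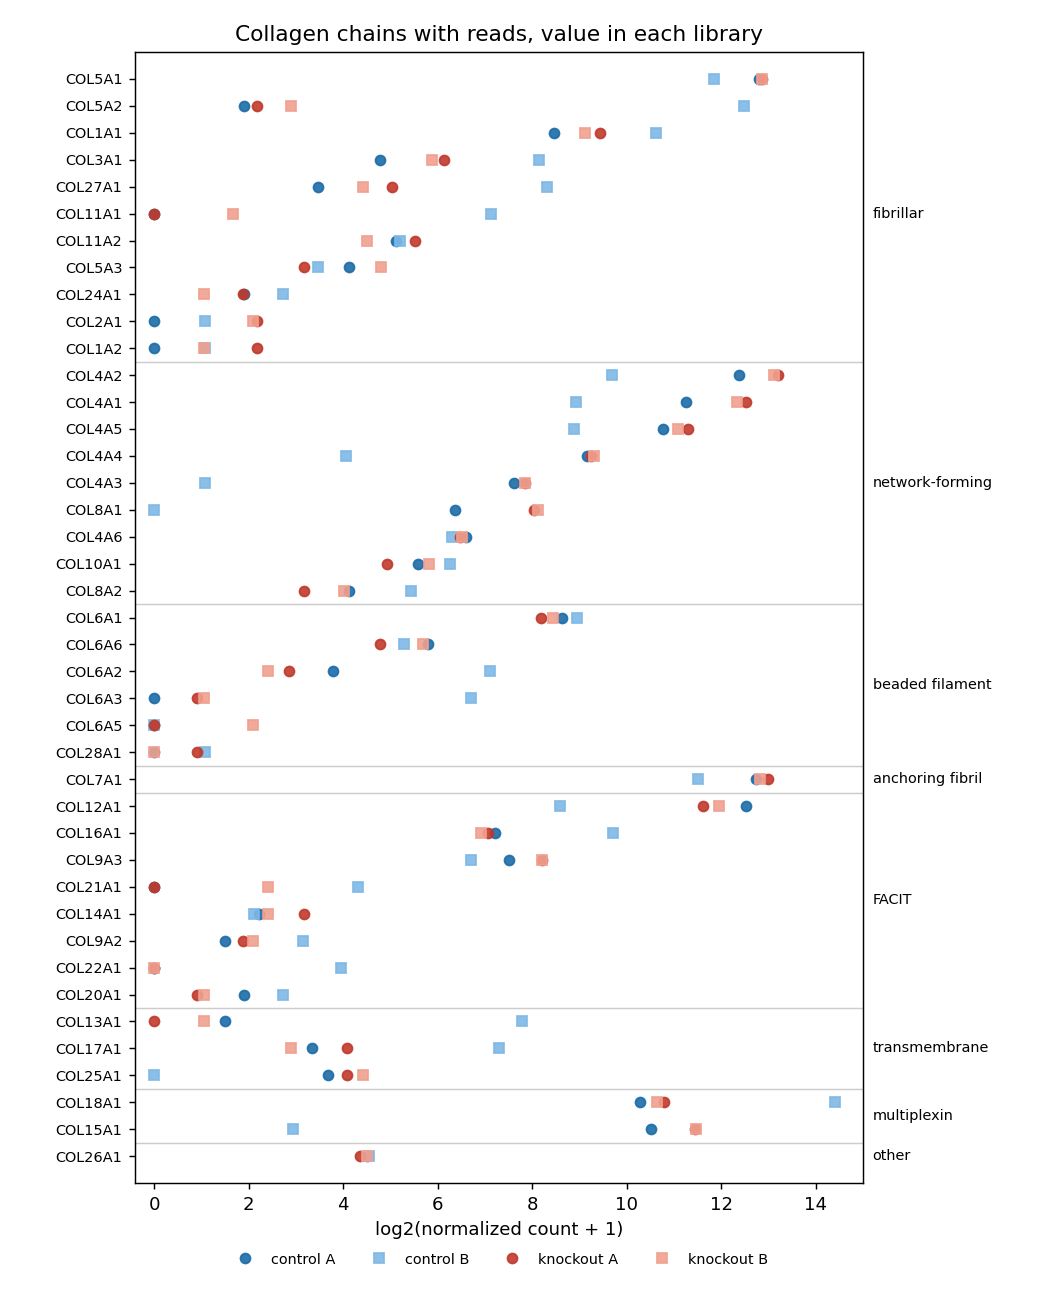
Normalized counts of the 41 collagen chains with reads, plotted as log2(normalized count + 1) on the x axis, 1 row per chain grouped by collagen class, with 1 point for each of the 4 libraries. In most of the abundant chains control B lies away from control A and both knockouts, as for COL5A2, COL15A1 and COL18A1. For COL15A1 the mean of the knockouts is also 1.92 times control A.

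Of the 17 chains with a base mean of at least 100, both knockouts lay above both controls in 10, where 24.5% of all genes of that base mean did, and below both controls in 2, COL6A1 and COL16A1, where 22.6% did. The groups overlapped in the other 5. The controls differed by more than 2 on the log2 scale at 12 of the 17 chains (14.9% of all genes of that base mean), with control B the lower at 7 and the higher at 5. The knockouts differed from each other by more than 1 at 0 of the 17 (0.55% of all genes of that base mean), and by at most 0.72. The mean of the knockouts lay more than 1 above control A for 3 chains, COL3A1, COL4A1 and COL8A1, against 0.934% of all genes, and more than 1 above both controls for 2 of them, COL4A1 and COL8A1, against 0.48%. It lay more than 1 below control A for 0 of the 17, against 0.559%. The median difference of the 17 chains came to 0.42 relative to control A and 1.49 relative to control B, beside 0.02 and -0.05 over all genes of that base mean.

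**Figure D2:**
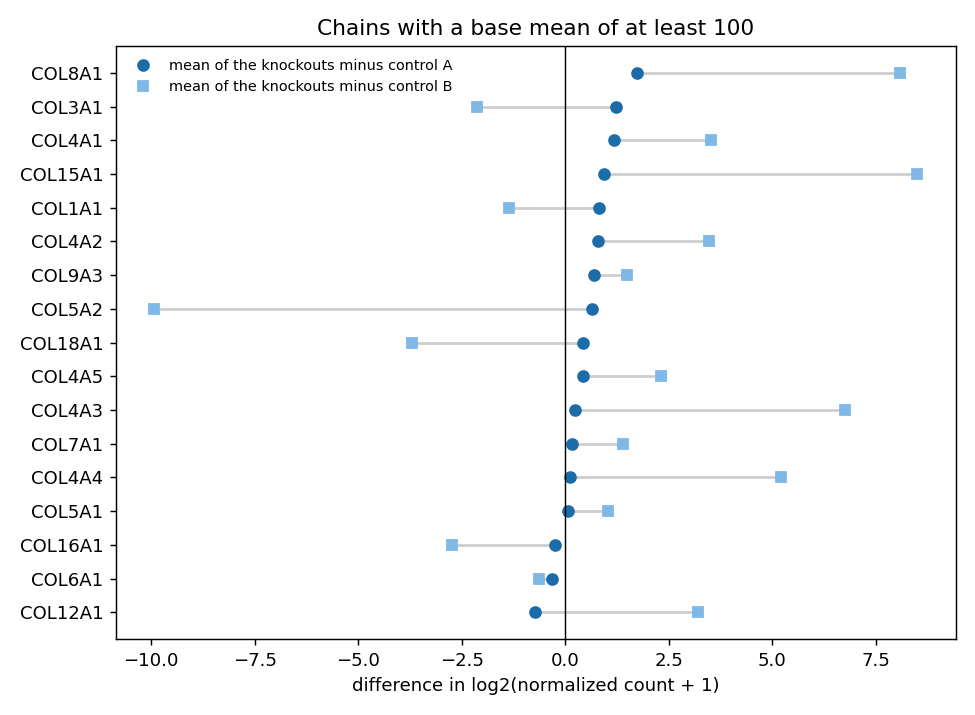
Difference in log2(normalized count + 1) between the mean of the 2 knockouts and each control library, for the 17 chains with a base mean of at least 100, circles for control A and squares for control B, joined by a grey line. COL4A1, COL4A2, COL8A1, COL9A3 and COL15A1 lie to the right of 0 for both controls, while COL1A1, COL3A1, COL5A2, COL12A1 and COL18A1 have 1 point on each side.

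Type IV collagen forms the network of basement membranes. COL4A1 and COL4A2, which encode the chains of the common basement membrane trimer, had more reads in each knockout than in each control. COL4A1 (ENSG00000187498.14_3_COL4A1) had 2426 and 482 normalized counts in controls A and B, with 5909 and 5163 in knockouts A and B. The knockout mean was 2.28 times control A and 11.5 times control B. The authors' deposited table gives COL4A1 a log2 fold change of 1.93 (standard error 0.744, unadjusted p 0.00951, DESeq2 adjusted p 0.235). COL4A2 (ENSG00000134871.17_3_COL4A2) had 5299 and 828 in controls A and B, with 9441 and 8901 in knockouts A and B, 1.73 times control A and 11.1 times control B. The authors' deposited table gives COL4A2 a log2 fold change of 1.58 (DESeq2 adjusted p 0.401, standard error 0.813). The 2 genes thus kept the same order of libraries, with control B lowest and knockout A highest. Per kb of transcript COL4A2 exceeded COL4A1 by 2.23 times in control A and by 1.63 to 1.76 times in the other libraries. Antisense genes lie at COL4A2, and as no source used here says that counting used strand, their reads cannot be told from those of COL4A2. COL4A2-AS1 and COL4A2-AS2 had at most 9 reads in a library.

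These chains are encoded head to head from a shared stretch, shown here because both genes lay higher in each knockout than in each control. Their order of libraries was not particular to them, since COL4A3, COL4A5, COL5A1 and COL7A1 had it too. In RefSeq on GRCh38.p14 the start sites of COL4A1, on the minus strand of chromosome 13, and of COL4A2, on the plus strand, lie on either side of 126 bases at chr13:110307158-110307283. The stretch is printed in the direction of COL4A2. For a further pair, COL4A4 and COL4A3 on chromosome 2, 418 bases lie between the starts, of which the 250 before COL4A3 are printed, at chr2:227164374-227164623. For COL4A6 and COL4A5 on the X chromosome 379 bases lie between the nearest starts, of which the 250 before COL4A5 are printed, at chrX:108439588-108439837. All are plus-strand sequences, and capitals mark matches to CCAAT on either strand. The motif GGGCGG is marked likewise, and TATAAA, found in 10.7% of all promoters over 250 bases, has 0 matches in these windows.
COL4A1 to COL4A2: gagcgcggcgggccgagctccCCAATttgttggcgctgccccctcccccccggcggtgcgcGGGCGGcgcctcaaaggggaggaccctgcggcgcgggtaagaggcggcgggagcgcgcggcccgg
COL4A3: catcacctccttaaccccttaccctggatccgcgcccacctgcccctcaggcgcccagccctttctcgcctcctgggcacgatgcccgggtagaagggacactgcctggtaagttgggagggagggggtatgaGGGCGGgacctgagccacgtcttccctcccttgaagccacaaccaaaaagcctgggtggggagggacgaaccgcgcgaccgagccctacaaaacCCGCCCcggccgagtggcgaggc
COL4A5: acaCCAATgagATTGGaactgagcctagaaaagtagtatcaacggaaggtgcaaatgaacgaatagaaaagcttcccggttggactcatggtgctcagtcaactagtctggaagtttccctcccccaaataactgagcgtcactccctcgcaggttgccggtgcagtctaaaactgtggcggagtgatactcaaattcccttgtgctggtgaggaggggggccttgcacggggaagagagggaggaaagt
The stretch between COL4A1 and COL4A2 holds 1 CCAAT and 1 GGGCGG match and is 80.2% G and C. In the 126 bases before the start, CCAAT occurs in 21.1% and GGGCGG in 34.6% of 35116 RefSeq promoters. The 250 bases before COL4A3 hold 2 GGGCGG matches and those before COL4A5 hold 2 CCAAT matches, where 42.6% and 32.0% of all promoters hold at least 1 over that length. A match is a description of the letters only.

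The other type IV chains encode the trimers of specialised basement membranes such as those of the kidney. COL4A3 had 194 and 1.12 in the controls, the second being 1 read, and 229 and 228 in the knockouts. COL4A4 had 569 and 15.6 in controls A and B, with 600.3 and 631 in knockouts A and B. Against control A the knockout means of COL4A3 and COL4A4 were only 1.17 and 1.08 times as high, so nearly all of their difference from the controls rests on control B. COL4A5 had 1751 and 469 in controls A and B, with 2526 and 2179 in knockouts A and B, 1.34 times control A and 5.01 times control B. COL4A6, the head-to-head neighbour of COL4A5, did not share this spread: it had 95.4 and 78.2 in controls A and B, with 87.7 and 90.6 in knockouts A and B, and the groups overlapped. The log2 fold changes of COL4A3, COL4A4, COL4A5 and COL4A6 in the authors' deposited table were 1.22, 1.07, 1.08 and 0.04, with DESeq2 adjusted p of 0.741, 0.797, 0.480 and 0.972.

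**Figure D3:**
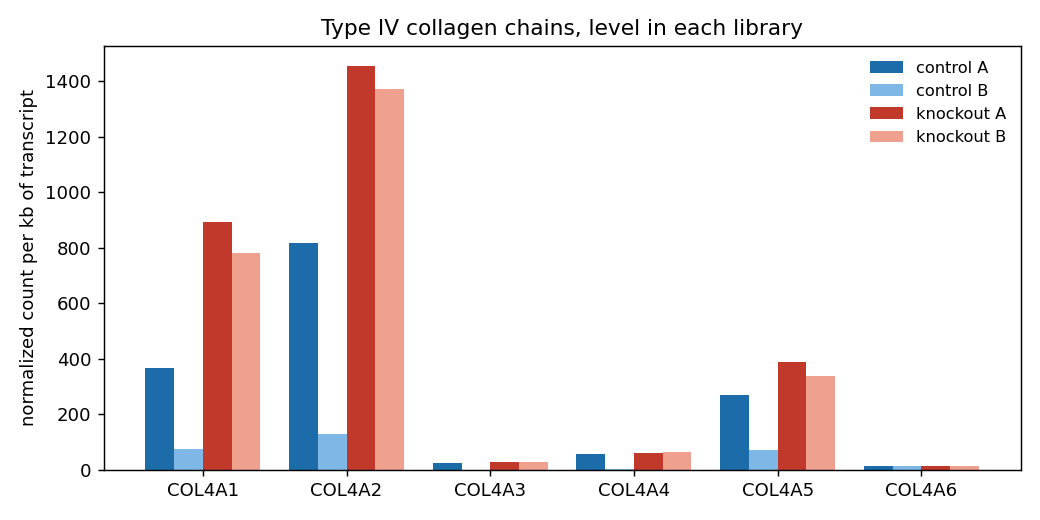
Level of the 6 type IV collagen chains in each of the 4 libraries, as normalized count per kb of the longest transcript, on a linear axis from 0, with 1 bar per library. COL4A1 and COL4A2 are tallest in the 2 knockouts and shortest in control B, COL4A5 follows the same order at a lower level, and COL4A6 lies between 11.6 and 14.1 in every library.

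Among the other network-forming chains, COL8A1, a short-chain collagen of vessel walls and basement membranes, had 80.9 and 0 normalized counts in controls A and B, with 263 and 276 in knockouts A and B. Both knockouts lay above both controls, at 3.33 times control A. In the authors' deposited table COL8A1 had a log2 fold change of 2.74 with a standard error of 2.82 (DESeq2 adjusted p 0.677), the controls being far apart. Its partner COL8A2 had 16.4 and 42.5 in controls A and B, with 7.97 and 15.1 in knockouts A and B. COL10A1, known from cartilage undergoing ossification, had 47.3 and 76.0 in controls A and B, with 29.2 and 55.0 in knockouts A and B, which overlapped.

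Of the chains found in and beside basement membranes, COL7A1 was abundant in every library, and COL15A1 and COL18A1 were spread in opposite directions in control B. COL7A1, which forms the anchoring fibrils that tie epithelium to stroma, had 6795 and 2912 in controls A and B, with 8101 and 7232 in knockouts A and B, 1.13 times control A and 2.63 times control B. COL15A1, a multiplexin of the basement membrane zone, had 1458 and 6.71 normalized counts in controls A and B, with 2774 and 2820.0 in knockouts A and B. The knockout mean of COL15A1 was 1.92 times control A, and the knockouts differed from each other by only 0.02 on the log2 scale. COL18A1, whose C-terminal fragment is endostatin, had 1249.6 and 21815 in controls A and B, with 1757 and 1600.3 in knockouts A and B. The knockouts thus lay above control A, at 1.34 times, and far below control B. The authors' deposited table gives log2 fold changes of 0.66, 1.93 and -2.78 for COL7A1, COL15A1 and COL18A1, with standard errors of 0.478, 2.27 and 1.56 and DESeq2 adjusted p of 0.558, 0.711 and 0.444. The antisense gene COL18A1-AS1 shared the high value in control B but not the direction against control A, with 36.4 and 313 in controls A and B against 32.8 and 18.3 in knockouts A and B, both knockouts lying below both controls. Its reads cannot be told from those of COL18A1 without strand.

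Of the fibrillar chains, COL5A1 was high in all 4 libraries and its partner COL5A2 in control B alone. COL5A1 encodes the major chain of type V collagen, which starts fibril assembly. It had 7119 and 3652 normalized counts in controls A and B, with 7480.2 and 7425 in knockouts A and B, 1.05 times control A and 2.04 times control B. COL5A2 encodes the second chain of type V collagen and had 2.73, 5664, 3.54 and 6.47 in control A, control B, knockout A and knockout B, which is 3, 5068, 4 and 6 reads. The log2 fold change of COL5A2 in the authors' deposited table, -9.15 (standard error 2.78, unadjusted p 0.00102, DESeq2 adjusted p 0.106), therefore rests on 1 control library. Against control A the knockouts were 0.64 higher on the log2(normalized count + 1) scale, at a handful of reads. COL5A3 had between 9 and 25 reads in every library.

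The chains of type I and type III collagen, the main fibres of skin, bone and desmoplastic stroma, were modest or near 0. COL1A1 had 354 and 1574 in controls A and B, with 687 and 556 in knockouts A and B, between the 2 controls. COL1A2, with which COL1A1 forms the usual type I trimer, had 0, 1, 4 and 1 reads in control A, control B, knockout A and knockout B. COL3A1 had 26.4 and 279 in controls A and B, with 69.1 and 58.2 in knockouts A and B, again between the controls and 2.41 times control A. For COL1A1 and COL3A1 the authors' deposited table gives log2 fold changes of -0.63 and -1.26 with standard errors of 0.736 and 1.13, and DESeq2 adjusted p of 0.709 and 0.632. COL27A1 had 11 and 284 reads in controls A and B and 36 and 19 in knockouts A and B, and COL11A1 was read almost only in control B, with 124 reads there, 2 in knockout B and 0 in the others. COL11A2 had between 21.6 and 45.2 in every library.

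Type VI collagen makes beaded filaments from 3 different chains around the cell. COL6A1 had 395 and 493 in controls A and B, with 289 and 344 in knockouts A and B, with each knockout under each control, at 0.80 times control A and 0.64 times control B. The authors' deposited table gives COL6A1 a log2 fold change of -0.49 (DESeq2 adjusted p 0.487, standard error 0.301). The other chains of the trimer were scarce outside control B: COL6A2 had 12.7 and 137 in controls A and B, with 6.20 and 4.31 in knockouts A and B, and COL6A3 had 0 and 104 in controls A and B, with 0.885 and 1.08 in knockouts A and B, 1 read each. The log2 fold changes of -3.83 and -5.73 for COL6A2 and COL6A3 in the authors' deposited table (DESeq2 adjusted p 0.171 and 0.289) thus compare the knockouts mostly with control B. COL6A6 had between 26.6 and 54.5 in every library.

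Among the fibril-associated chains COL9A3 and COL12A1 stood on opposite sides of control A. COL9A3, a chain of the cartilage collagen type IX, had 179.9 and 104 in controls A and B, with 292 and 293 in knockouts A and B, 1.63 times control A and 2.82 times control B. The groups did not overlap, and the authors' deposited table gives COL9A3 a log2 fold change of 1.04 (standard error 0.440, unadjusted p 0.0180, DESeq2 adjusted p 0.289). Its partner chains were silent or nearly so, COL9A1 at 0 and COL9A2 at 2 to 7 reads. COL12A1, a large chain that coats type I fibrils, had 5840.2 and 382 in controls A and B, with 3135 and 3946 in knockouts A and B. The knockouts therefore lay below control A, at 0.61 times, and above control B, at 9.26 times. For COL12A1 the authors' deposited table holds a log2 fold change of 0.19 (DESeq2 adjusted p 0.959, standard error 1.52). COL16A1 had 148 and 838 in controls A and B, with 132 and 119.7 in knockouts A and B, 0.85 times control A and 0.15 times control B. The authors' deposited table gives COL16A1 a log2 fold change of -1.97 (standard error 0.857, unadjusted p 0.0215, DESeq2 adjusted p 0.309).

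The transmembrane chains were read mainly in control B. COL13A1, a chain of cell-matrix junctions, had 219 normalized counts in control B and 2, 0 and 1 reads in the other libraries (control A first). COL17A1, a hemidesmosome component of basal epithelia, had 9.09 and 155 in controls A and B, with 15.9 and 6.47 in knockouts A and B, which overlapped with control A. The authors' deposited table gives log2 fold changes of -7.78 and -2.87 for COL13A1 and COL17A1, with DESeq2 adjusted p of 0.109 and 0.378. COL25A1 went the other way, with 13 and 0 reads in controls A and B and 18 and 19 in knockouts A and B. COL26A1, of no class, had between 19.5 and 22.4 in every library.

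Per kb of the longest transcript, the collagen pool of control A and of the knockouts was led by COL5A1 in control A and by COL4A2 in both knockouts. That of control B was led by COL18A1. COL4A1 and COL4A2 together had 1183 and 200.4 normalized counts per kb in controls A and B, with 2347 and 2151 in knockouts A and B. As shares of the sum over all chains these were 27% and 3.32% for controls A and B, with 38.8% and 37.4% for knockouts A and B. COL18A1 made up 54.9% in control B and 4.22% to 4.41% in the others. COL12A1 made up 11.4% and 0.541% in controls A and B, with 4.42% and 5.85% in knockouts A and B. The sum itself was 4385 and 6032 normalized counts per kb in controls A and B, with 6045 and 5754 in knockouts A and B, so both knockouts lay above control A but not both above control B. Shares of a sum move together, since a rise of 1 chain lowers the rest.

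**Figure D4:**
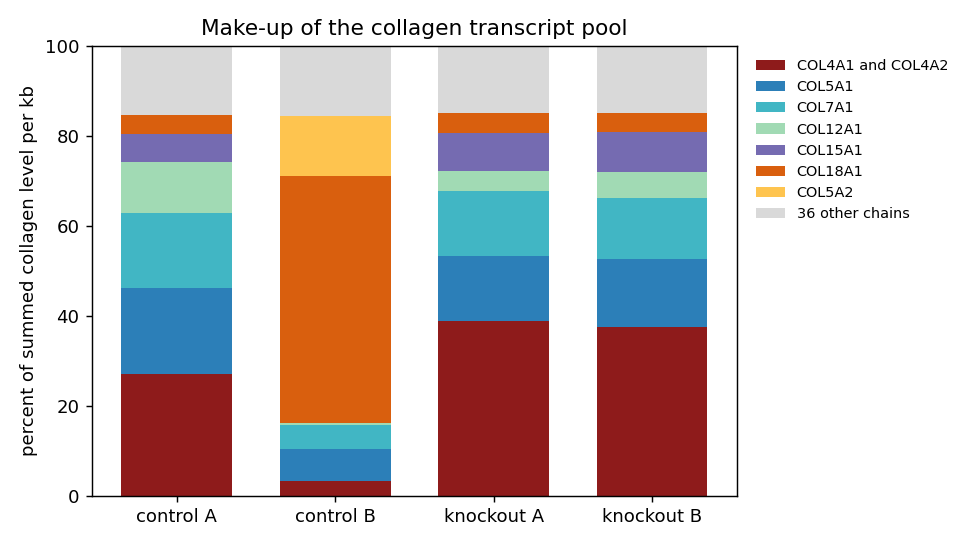
Share of each chain in the summed collagen level of a library, in percent of normalized counts per kb of transcript, as stacked bars for the 4 libraries. 8 chains are coloured, COL4A1 and COL4A2 as 1 segment, and the other 36 are grey. COL4A1 and COL4A2 fill 38.8% and 37.4% of the knockouts, 27% of control A and 3.32% of control B, and COL18A1 fills 54.9% of control B.

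Partner chains of 1 molecule were often unequal within a library. In control A and the knockouts COL1A1, COL5A1, COL6A1 and COL9A3 were read without matching levels of COL1A2, COL5A2, COL6A2 with COL6A3, and COL9A1 with COL9A2. COL6A1 exceeded COL6A2 per kb by 25.4 times in control A, 38.0 and 65.1 times in the knockouts, and 2.93 times in control B. COL5A2 exceeded COL5A1 per kb by 1.86 times in control B. COL3A1 and COL5A2, neighbours on chromosome 2, both had their highest values in control B.

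With 1 control at a time the picture differed. Limma was run on log2(normalized count + 1) of the recovered reads of all 4 libraries. It gave 0 of 39 chains an adjusted p under 0.05, against 0% of all genes. An unadjusted p under 0.05 was found for 1 chain and for 1.98% of all genes. Without control B, limma called 0 of 36 chains (0% of all genes), and 10 chains had an unadjusted p under 0.05, 9 higher and 1 lower in the knockouts, where 14.1% of all genes had such a p, 8.41% higher and 5.72% lower. These were COL1A1, COL3A1, COL4A1, COL4A2, COL4A5, COL8A1, COL9A3, COL15A1 and COL18A1, with COL12A1 lower. In that fit the difference was 1.72 (standard error 0.161) for COL8A1, 1.19 (0.125) for COL4A1, 0.94 (0.097) for COL15A1 and 0.79 (0.102) for COL4A2, all at a limma adjusted p of 0.265. In that fit, and in the one without control A, the lone control is assumed to vary like the knockouts, and no spread between controls enters. Without control A, limma called 22 of 40 chains, 12 higher and 10 lower in the knockouts, against 33.3% of all genes (17.1% higher and 16.2% lower). At an unadjusted p under 0.05 there were 27 chains, against 50.1% of all genes.

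The genes that modify, fold, process and bind collagen gave 0 called members in each of 5 lists, 60 genes in all, of which 51 had a DESeq2 adjusted p (0.559% of all genes were called). Of 14 genes that hydroxylate and glycosylate chains, 0 were called higher and 0 lower. COLGALT1, the galactosyltransferase of hydroxylysine, was nearest, with 4068 and 3407 in controls A and B against 6004 and 6289 in knockouts A and B. For COLGALT1 the authors' deposited table holds a log2 fold change of 0.72 (DESeq2 adjusted p 0.0614, standard error 0.202), and the knockout mean was 1.51 times control A and 1.80 times control B. P4HA3, a prolyl hydroxylase subunit, had 275 and 15.6 in controls A and B, with 696 and 749 in knockouts A and B, 2.62 times control A, and P4HA2 had 895 and 1181 against 622 and 715. The authors' deposited table gives 2.31 and -0.63 for P4HA3 and P4HA2, with DESeq2 adjusted p of 0.377 and 0.321. COLGALT2 had 57.0 in control B and at most 1 read elsewhere. P4HB and PLOD2, the most abundant of this list, were highest in control B, at 15775 and 19009.7, and at 7516 to 8346 and 1279.6 to 1834 in the other libraries.

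Of 13 genes of folding and export 0 were called higher and 0 lower. The endoplasmic reticulum isomerase gene FKBP9 had 2230.3 and 1738 in controls A and B, with 3037 and 3150.0 in knockouts A and B, and SEC24D, a coat protein gene of collagen export, 1362 and 1366 against 875 and 1058. Their log2 fold changes in the authors' deposited table were 0.64 and -0.50 (DESeq2 adjusted p 0.211 and 0.326). FKBP10 and PPIB, the most abundant, had 0.19 and -0.0024 in the authors' deposited table, with DESeq2 adjusted p of 0.664 and 0.998. Of 14 genes of propeptide removal and cross-linking 0 were called higher and 0 lower. The authors' deposited table puts the most abundant, PXDN and LOXL2, at log2 fold changes of 1.20 and -0.18 (DESeq2 adjusted p 0.822 and 0.669). PXDN encodes peroxidasin, which cross-links type IV collagen, and its libraries could not be read apart at its base mean of 10206. Of 10 receptor genes 0 were called higher and 0 lower. ITGA2, the alpha chain of a collagen-binding integrin, had 1329 and 26889 in controls A and B, with 1436 and 1709 in knockouts A and B, and ITGB1, its beta chain, a log2 fold change of -0.13 in the authors' deposited table. Of 9 genes of fibril partners 0 were called higher and 0 lower. THBS1 had 3253 and 3111 in controls A and B, with 2239 and 2534 in knockouts A and B, lower than both controls (-0.41 on the log2 scale by the authors' deposited table, DESeq2 adjusted p 0.326). FN1, the fibronectin gene, had 2097 and 46.9 against 2725 and 3179, and TGFBI 337 and 5159 against 262 and 304.

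**Figure D5:**
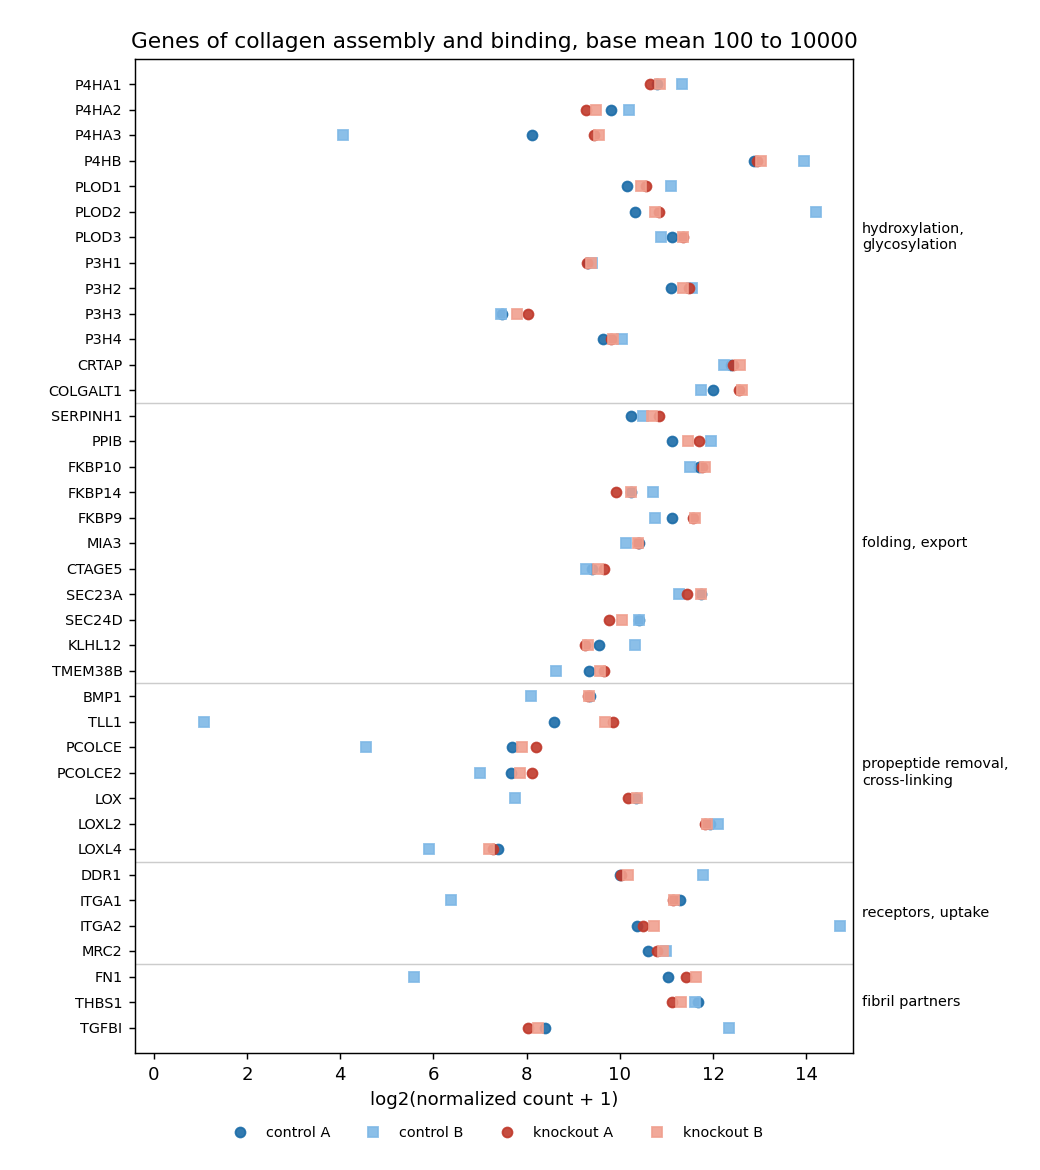
Normalized counts of the 38 genes of the 5 lists with a base mean from 100 to 10000, plotted as log2(normalized count + 1), 1 row per gene and 1 point for each of the 4 libraries. COLGALT1, FKBP9 and P4HA3 have both knockouts to the right of both controls, and control B lies away from the other 3 for PLOD2, ITGA2, TGFBI, TLL1 and FN1.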

How the data were processed

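Total RNA of 2 control and 2 CFL1 knockout libraries was sequenced on an Illumina instrument, per the labels' protocols. The tools in the submitters' processing notes are cutadapt, FastQC, STAR and RSEM, without versions, and the build is hg19. The 1 deposited file is the authors' DESeq2 result table: its base mean is a signal (mean of counts over size factors), its log2 fold change and standard error are on the log2 scale, its Wald score and p-value columns are as the authors deposited them. A base mean adds up whole reads times 1 step per library, each step being readable from genes with 1 read. This was solved for 30644 of 30662 genes below a base mean of 10000 (99.9%) and for all 41 chains with reads. A solution was kept if it alone implied a fold change within 0.0002 log2 of the deposited one. Where none did, a lone solution was kept. Of 16931 recovered genes with a base mean of 10 or more and an implied fold change, 16845 lay within that limit. Genes with 0 reads in a group imply no fold change and had no such check. Of 100 shifted base means between 6000 and 10000, 3 gave a solution within the limit, and of 100 between 3000 and 6000, 1 did. The shifts do not test solutions kept without that limit. RSEM estimates counts, so reads shared by similar genes may be divided.

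Calls are the authors' adjusted p under 0.05. The recovered reads, as log2(normalized count + 1), went through limma 3.58.1 (R 4.3.3, trended prior, genes averaging 1 or more), run first on simulated data. The simulation drew every library from the same profile, made without control B, and with the same dispersion for every gene. It does not cover controls as far apart as these. The limma fit was repeated with 0.1 added, with genes averaging 10 or more, with voom, and without each library. Lengths are of the longest coding transcript in GENCODE 29, which belongs to another build, so hg19 coordinates are not given. Chains with a base mean of at least 100 or an unadjusted p under 0.05 are named with their values, the 3 chains just outside that base mean are given once, and pathway genes are named if marked or the 2 most abundant of a list; other names were chosen after values were seen. Members and lists were chosen with earlier results of these data known. Promoters are RefSeq's, found for 32 of the 44 chains. Python 3.11.15, numpy 2.4.6, pandas 2.3.3 and matplotlib 3.10.9 were used.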

Additional observations from a re-analysis of the deposited data

How the results depend on the processing

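No paired analysis was possible because the deposited table has no column per library and the recovered libraries carry no replicate number. Adjustment over all genes, over genes with base means from 10 or from 100, and an adjusted p under 0.01 each called 0 chains and 0 pathway genes, as the authors' adjusted p did. So did limma with a pseudocount of 1 or 0.1 or a mean of at least 10, and voom, but these fits called 0% of all genes. CFL1 itself was not called (limma adjusted p 0.723 with a pseudocount of 1), so these fits say nothing particular about the chains. The table's own mark of an unadjusted p under 0.05 gave 2 chains higher and 6 lower, and 3 pathway genes higher and 5 lower, beside 1.97% and 5.65% of all genes. Leaving out each library in turn gave 0 to 12 chains higher and 0 to 10 lower, and 0 to 15 pathway genes higher and 0 to 8 lower, all nonzero counts coming without control A, where 17.1% of all genes were called higher and 16.2% lower. Without control B the direction changed for 6 of the 19 named chains tested there, COL6A3 and COL13A1 being too low, and it changed for 0 of 21 under limma, voom, the pseudocount and the mean filter. Over the libraries left out, the log2 difference ran from -1.35 to 0.80 for COL1A1, from -2.12 to 1.24 for COL3A1, from -9.93 to 0.64 for COL5A2, from -0.73 to 3.20 for COL12A1, from -3.80 to 0.16 for COL17A1 and from -3.70 to 0.42 for COL18A1. With 2 libraries a group, an exact permutation test cannot go below 0.333, and chains under a base mean of 10 are too thinly read to compare.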

Other observations

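Symbols that begin with COL but name no chain under the rule were read as follows. The pseudogene COL6A4P1 had 8, 3, 28 and 18 reads in control A, control B, knockout A and knockout B, with a log2 fold change of 2.04 in the authors' deposited table. COLQ, the collagen tail of acetylcholinesterase, had between 2 and 13 reads in every library. COL4A3BP, which encodes a ceramide transfer protein and no collagen, had 1049, 1710.1, 1039 and 1138 normalized counts, in that order. COL18A1-AS2 had 3 reads in control B and 0 elsewhere, and COL5A1-AS1 had none.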
